A study of Rattus norvegicus with 18 samples.

Results

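Integrin alpha subunits are the chains of the integrin dimer that decide which matrix protein a cell holds on to, and 10 of them, Itga1, Itga2, Itga3, Itga4, Itga5, Itga6, Itga7, Itga8, Itga11 and Itgav, were followed here by gene name among the 32623 rat genes of the RNA-seq tables. Bone marrow mesenchymal stem cells (MSCs) came from 2-month-old SD rats that were either miR-337-/- (KO) or wild type (WT). At passage 3 all cultures were first deprived of serum for 8 h. The groups were KO CMS and KO FBS, which received 10% cyclic mechanical stretch (CMS) or serum (FBS) for 24 h, KO SSt, which stayed serum-starved, and WT CMS, WT FBS and WT SSt, treated in the same ways, with 3 libraries in each of the 6 groups. The KO cells came from rats that lack the gene, so the genotypes differ in the animal and not only in the culture dish. Each genotype's libraries stand in a table of their own, and the genotype and whatever else separates the tables cannot be told apart. Treatment times differ between sources, since the labels give 24 h and the methods of the study a shorter one.

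An integrin is a heterodimer of an alpha and a beta chain that spans the plasma membrane, binds extracellular matrix outside and the actin cytoskeleton, through talin and kindlins, inside. The alpha chain sets most of the ligand preference: Itga1, Itga2 and Itga11 bind collagens, Itga3, Itga6 and Itga7 bind laminins, Itga5, Itga8 and Itgav read the RGD motif of fibronectin, nephronectin and other proteins, and Itga4 binds Vcam1 and a stretch of fibronectin outside the RGD site. In stromal cells these receptors carry force between matrix and cytoskeleton, and they hold the cells in the marrow niche.

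Library totals ran from 56.08 to 71.85 M counts, and the 10 alpha subunits had between 105 and 25114 counts in a library. Of the MSC markers in the tables, 8 of 9 reached an FPKM (counts scaled to transcript length and library total) of 1, with Thy1, Cd44 and Col1a1 high, while Lepr was at or close to 0 in every group. The cultures also held macrophage transcripts: 11 of 12 macrophage markers reached an FPKM of 1 in every group, all but Cd163, and Ptprc, the pan-leukocyte gene Cd45, averaged 17.3 to 49.6 FPKM. Of the endothelial list Emcn was at 0 and Vwf below 0.1 FPKM, Cdh5 and Tek averaged at most 1.17, and Tie1 was present, with 16.9 FPKM in KO CMS and 6.81 in KO SSt, and 23.3 in WT CMS and 7.12 in WT SSt. Of the epithelial list Epcam, Cdh1 and Krt18 were near 0, and Krt8 averaged 0.384 to 1.37 FPKM. In bulk RNA of such a culture, fewer cells of a type and less RNA per cell cannot be told apart. The row of the miR-337 gene had 0 counts in all 18 libraries of both genotypes, so it checks no label. The 3p arm of the rat miRNA is shown for its seed, bases 2 to 8 in capitals, as RefSeq gives it on GRCr8 at chr6:134321201-134321223 on the plus strand.
rno-miR-337-3p: uUCAGCUCcuauaugaugccuuu

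Per kilobase of transcript, Itga5 and Itgav were among the most abundant alpha subunits in all 6 groups. Itga5, the fibronectin receptor, averaged 51.1 FPKM in KO CMS, 41.8 in KO FBS and 58.2 in KO SSt, and 45.8 in WT CMS, 44.7 in WT FBS and 72.4 in WT SSt. The summed FPKM of the 10 subunits was 179 ± 0.564 in KO CMS, 165 ± 4.85 in KO FBS and 250 ± 5.0 in KO SSt, against 176 ± 1.51 in WT CMS, 177 ± 1.68 in WT FBS and 298 ± 4.12 in WT SSt (SD, n = 3 each). The sum of these 10 was thus highest in the starved groups of either genotype, and its ranges over libraries did not overlap with those of the treated groups. FPKM is relative to each library's total, so the sum is not an amount of mRNA per cell. Relative to Itgb1, the beta chain that most of these subunits share, the sum was 0.647 ± 0.0064 in KO CMS, 0.631 ± 0.0372 in KO FBS and 0.516 ± 0.00735 in KO SSt, but 0.689 ± 0.0106 in WT CMS, 0.707 ± 0.0145 in WT FBS and 0.750 ± 0.0182 in WT SSt.

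The make-up of that sum moved as well. In KO CMS, Itga8 gave 0.293% and Itga4 3.06% of the summed FPKM, whereas in KO SSt they gave 5.16% and 0.471%. In WT CMS the shares were 0.264% for Itga8 and 10.8% for Itga4, and in WT SSt 12.8% and 0.179%, so the subunit that was least abundant in starved WT cells stood above 5 others under stretch. Collagen receptors made up 28.2% in KO CMS, 29.0% in KO FBS and 25.3% in KO SSt, compared with 18.8% in WT CMS, 19.4% in WT FBS and 14.7% in WT SSt. RGD receptors made up 48.2% to 58.3% in the 6 group means.

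**Figure D1:**
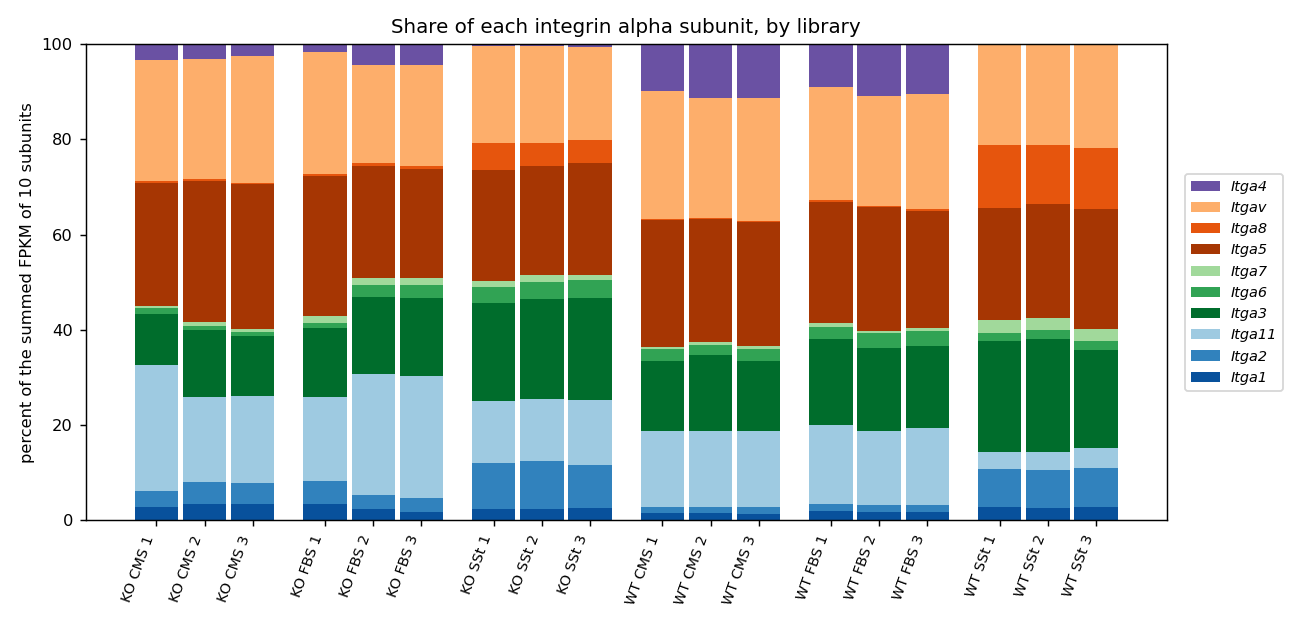
Share of each of the 10 integrin alpha subunits in their summed FPKM (vertical axis, percent) in each of the 18 libraries (horizontal axis, 3 per group), with collagen receptors in blue, laminin receptors in green, RGD receptors in orange and Itga4 in purple. Itga8 is wide only in the SSt libraries, at a mean of 5.16% in KO SSt and 12.8% in WT SSt, and Itga4 is widest in WT CMS, at 10.8%, and in WT FBS, at 10.1%.

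In KO cells under CMS, 6 of the 10 subunits passed an adjusted p of 0.05 with a change of at least 2-fold against SSt, where 19.2% of all tested genes did: Itga4 rose, and Itga2, Itga3, Itga6, Itga7 and Itga8 fell. In KO cells under FBS, 4 of 10 did, against 17.1% of all genes, with Itga4 higher and Itga2, Itga6 and Itga8 lower. In WT cells under CMS, 7 of 10 changed by that rule, against 16.7% of all genes: Itga4 and Itga11 rose, and Itga1, Itga2, Itga3, Itga7 and Itga8 fell. The same 7 subunits changed in the same directions in WT cells under FBS, where 16.1% of all genes did. The median log2 fold change of the 10 was -0.60 in KO CMS and -0.47 in KO FBS, and -1.02 in WT CMS and -0.94 in WT FBS, while the median over all tested genes lay between -0.00164 and 0.017. All 10 passed the filter on low values (3 or more libraries with an FPKM of 1 or higher), but in the WT fit Itga8 passed it through the 3 SSt libraries alone. Itga4 passed it in that fit through CMS and FBS libraries alone, with its SSt libraries at 0.438 to 0.585 FPKM. In the KO fit Itga8 passed it through the SSt libraries and KO FBS replicate 3, at 1.02 FPKM, alone. The calls of Itga8 in both genotypes and of Itga4 in WT were therefore bound to follow.

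**Figure D2:**
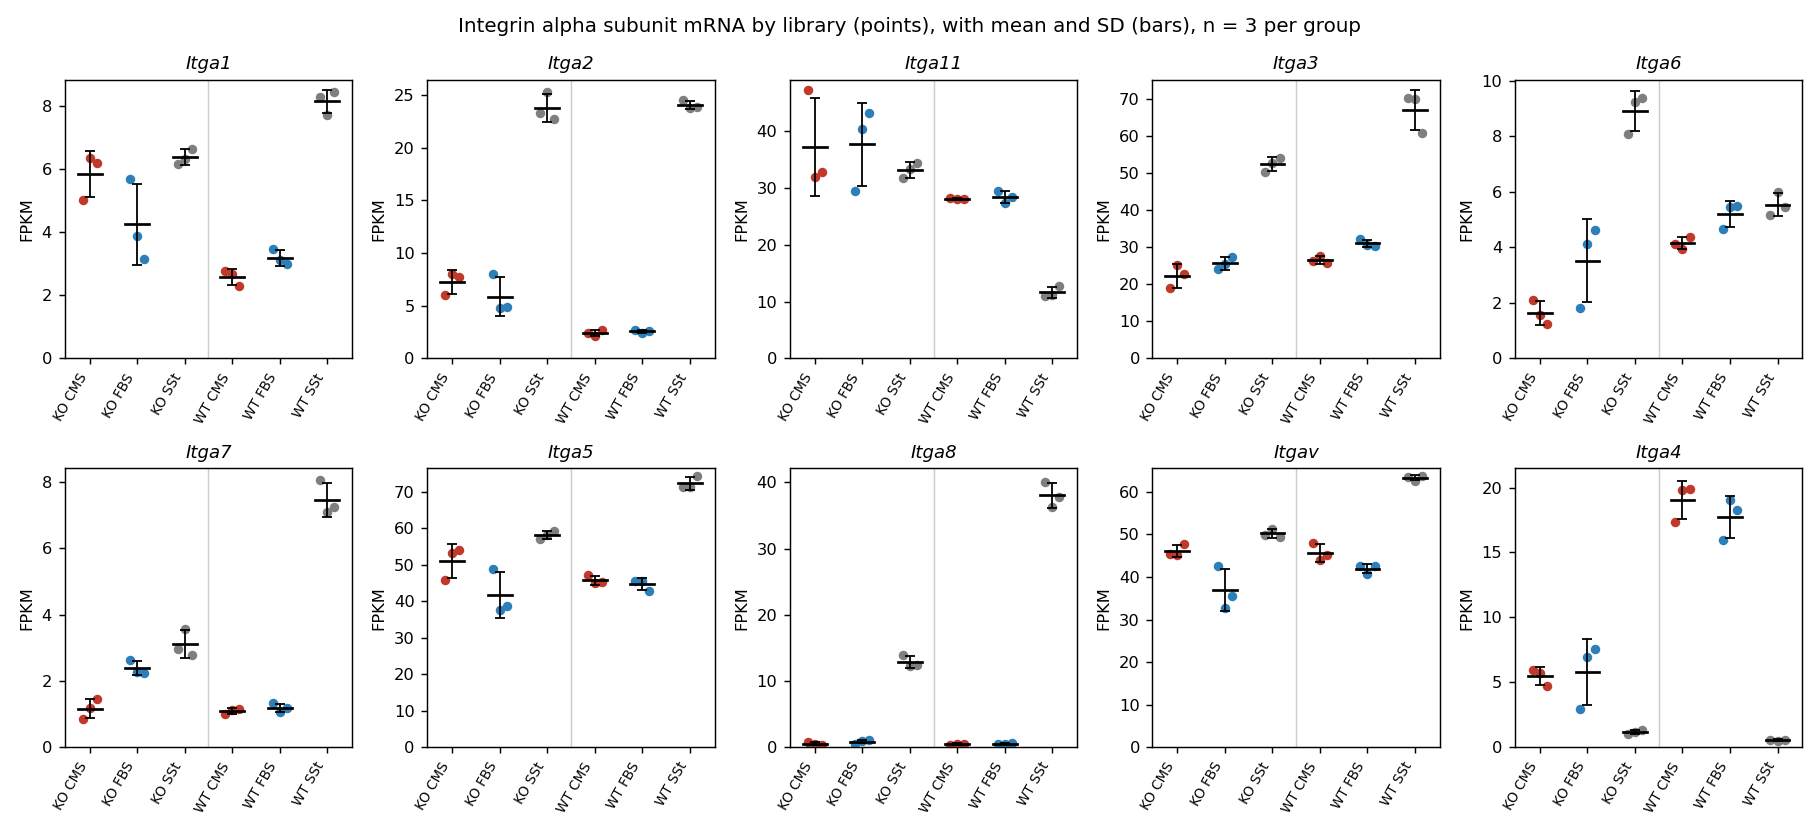
FPKM of each of the 10 integrin alpha subunits (vertical axes, linear from 0) in the 6 groups (horizontal axes), where points are libraries, horizontal bars means and vertical bars SDs, n = 3. Itga8 stands at 12.3 to 13.98 FPKM in KO SSt and 36.3 to 40.1 in WT SSt and at or below 1.02 in the 4 treated groups, and Itga4 is lowest in KO SSt and WT SSt.

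Between genotypes, 4 of 10 subunits differed by at least 2-fold under CMS, where 8.31% of all genes did: Itga1 and Itga2 were higher in KO, and Itga4 and Itga6 lower. Under FBS 3 of 10 differed, against 4.02% of all genes, with Itga2 and Itga7 higher and Itga4 lower in KO. Under SSt 4 of 10 differed, against 7.32% of all genes, with Itga4 and Itga11 higher and Itga7 and Itga8 lower in KO. The response itself was compared with an interaction term, which gives the KO log2 change minus the WT one. By that test the CMS response of 6 subunits differed at least 2-fold between genotypes, where 13.4% of all genes did, and the FBS response of 5, where 8.97% did. The counts over the 10 carry no test of their own, and the CMS and FBS contrasts of a genotype share their SSt libraries.

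**Figure D3:**
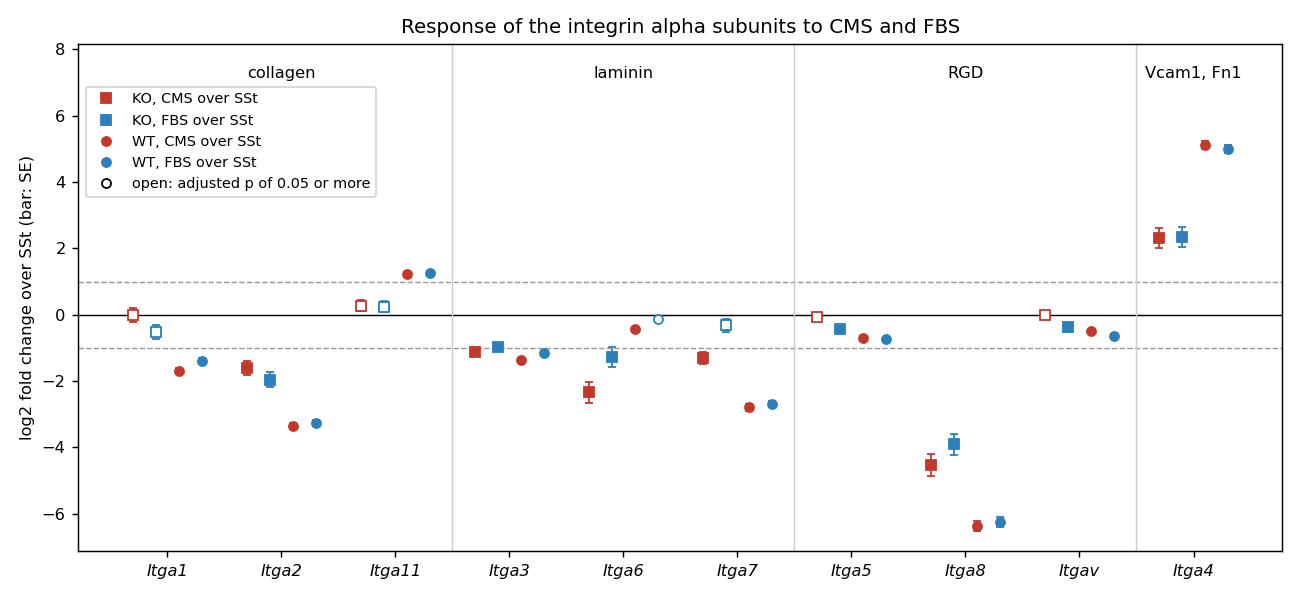
log2 fold change over SSt (vertical axis, edgeR) of the 10 integrin alpha subunits (horizontal axis, grouped by ligand) under CMS and FBS in KO (squares) and WT (circles), where vertical bars are SEs, open symbols mark an adjusted p of 0.05 or more and dashed lines mark 2-fold. The KO symbols of every subunit but Itga6 lie nearer to 0 than the WT symbols, and those of Itga6 lie farther from it.

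CMS and FBS were also compared with each other. Between KO CMS and KO FBS 0 of 10 subunits changed by the 2-fold rule, where 2.61% of all genes did, although edgeR gave an adjusted p under 0.05 for 2 of 10, against 14.8% of all genes: Itga7 (log2 fold change -0.99 ± 0.19 SE, adjusted p = 0.0123) and Itgav (0.37 ± 0.10 SE, adjusted p = 0.0397). Itga6 was lower in KO CMS by a larger amount that missed the limit (-1.06 ± 0.31 SE, adjusted p = 0.0509). Without KO FBS replicate 1, which stood apart from its group, the Itga6 difference was -1.36 (adjusted p = 0.00104, edgeR), and DESeq2 called Itga6 with all libraries (-1.05, adjusted p = 0.00156). Without KO CMS replicate 1 edgeR called Itga6 (-1.27, adjusted p = 0.0486) and Itga8 (-1.02, adjusted p = 0.0380). Without KO CMS replicate 3, KO FBS replicate 2 or KO FBS replicate 3 it called Itga7 (-1.18, -1.03 and -1.04). Between WT CMS and WT FBS 0 of 10 changed by the rule, against 0.217% of all genes, and the log2 differences ran from -0.32 for Itga6 (adjusted p = 0.0391) to 0.13 for Itgav (adjusted p = 0.0622). Itga3 was the only other subunit under 0.05 there, at -0.21 ± 0.06 SE (adjusted p = 0.0483), which makes 2 of 10 against 8.94% of all genes, and DESeq2 also called 0 of 10.

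Among the collagen receptors, Itga2 and Itga11 went in opposite directions in WT cells. Itga2, which with Itgb1 forms a main receptor for fibrillar collagen, was at 5.999, 8.03 and 7.73 FPKM in KO CMS, at 7.98, 4.75 and 4.85 in KO FBS and at 23.3, 25.3 and 22.8 in KO SSt. Its WT libraries were at 2.37, 2.11 and 2.71 FPKM in CMS, at 2.68, 2.44 and 2.58 in FBS and at 24.5, 23.8 and 23.9 in SSt. Starved cells of both genotypes overlapped, and every treated KO library stood above every treated WT library. Under CMS the fall was 3.04-fold in KO (log2 fold change -1.60 ± 0.22 SE, adjusted p = 0.000203) and 10.2-fold in WT (-3.35 ± 0.08 SE, adjusted p = 5.61e-10). The KO minus WT difference of the CMS response was 1.75 ± 0.24 SE (adjusted p = 3.81e-05), and that of the FBS response 1.32 ± 0.24 SE (adjusted p = 0.000696). KO exceeded WT by 1.66 ± 0.18 SE in CMS (log2, adjusted p = 4.57e-06) and by 1.23 ± 0.18 SE in FBS (adjusted p = 0.000124), and the SSt value was -0.09 ± 0.17 SE (adjusted p = 0.694).

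Itga11, a receptor for fibrillar collagen on fibroblasts and other mesenchymal cells, was at 47.2, 31.9 and 32.7 FPKM in KO CMS, at 29.4, 40.4 and 43.2 in KO FBS and at 31.7, 33.4 and 34.4 in KO SSt. KO CMS replicate 1 was the highest of the 18 libraries, these 3 KO groups overlapped, and neither contrast with SSt passed (log2 fold change 0.28 ± 0.16 SE, adjusted p = 0.170 for CMS, and 0.24 ± 0.16 SE, adjusted p = 0.235 for FBS). In WT it was at 28.2, 28.0 and 28.0 FPKM in CMS, at 29.5, 27.4 and 28.3 in FBS and at 11.1, 11.2 and 12.8 in SSt. Only the starved WT libraries were low: CMS raised Itga11 by 1.24 ± 0.06 SE (log2, adjusted p = 2.98e-08) and FBS by 1.25 ± 0.06 SE (adjusted p = 2.95e-08). KO SSt exceeded WT SSt 2.69-fold (log2 1.43 ± 0.14 SE, adjusted p = 8.50e-07). The KO minus WT difference of the CMS response, -0.96 ± 0.19 SE (adjusted p = 0.000729), and that of the FBS response, -0.99 ± 0.19 SE (adjusted p = 0.000872), lay close to the 2-fold limit. The FBS value passed it with DESeq2 (-1.001) and 5 other settings (down to -1.111), and the CMS value with upper-quartile scaling (-1.055) and limma with either pseudocount (-1.057 and -1.115). Leaving out KO CMS replicate 1 also put the CMS value past it (-1.154), as did leaving out WT SSt replicate 3 (-1.026).

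Itga1, which prefers the collagen IV of basement membranes, was at 4.997, 6.34 and 6.19 FPKM in KO CMS, 5.67, 3.89 and 3.16 in KO FBS and 6.15, 6.31 and 6.63 in KO SSt. In WT it was at 2.75, 2.67 and 2.28 FPKM in CMS, 3.46, 3.11 and 2.98 in FBS and 8.27, 7.71 and 8.41 in SSt. In KO the CMS and SSt libraries overlapped, whereas in WT all treated libraries were below all starved ones. Under CMS the KO value was -0.01 ± 0.20 SE (log2, adjusted p = 0.962), while in WT Itga1 fell 3.22-fold (-1.69 ± 0.09 SE, adjusted p = 7.42e-08), and the 2 responses differed by 1.68 ± 0.23 SE (adjusted p = 4.19e-05). In CMS KO exceeded WT by 1.25 ± 0.17 SE (adjusted p = 3.75e-05). The Itga1 values carry an uncertainty, because the gene Pelo lies within Itga1 on the same strand at 27.0 to 44.3 FPKM, and how reads over both were assigned is not given in the sources used here.

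The laminin receptors gave a different answer for each member. Itga3, a receptor for the laminins of epithelial and vascular basement membranes, was at 19.0, 25.4 and 22.7 FPKM in KO CMS, 24.1, 25.6 and 27.5 in KO FBS and 50.5, 52.9 and 54.3 in KO SSt. Its WT libraries were at 26.2, 27.8 and 25.7 FPKM in CMS, 32.2, 30.6 and 30.4 in FBS and 70.5, 70.2 and 60.9 in SSt. Starved libraries were above all others in both genotypes. The CMS change was -1.12 ± 0.10 SE in KO (adjusted p = 1.48e-05) and -1.36 ± 0.06 SE in WT (adjusted p = 1.91e-08), and the difference between the 2 responses, 0.24 ± 0.12 SE, did not pass (adjusted p = 0.112). Under FBS the KO change of -0.97 ± 0.10 SE (adjusted p = 4.25e-05) was just under 2-fold, and limma put it just over (-1.005 and -1.03 with pseudocounts of 1 and 0.1).

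Itga6, the laminin receptor chain shared by many stem and progenitor cells, was at 2.09, 1.56 and 1.24 FPKM in KO CMS, 1.83, 4.14 and 4.61 in KO FBS and 8.09, 9.25 and 9.38 in KO SSt. The WT libraries were at 4.14, 3.94 and 4.37 FPKM in CMS, 4.65, 5.45 and 5.499 in FBS and 5.17, 6.001 and 5.44 in SSt. All 3 KO CMS libraries were below all WT libraries, and all 3 KO SSt libraries above them. The CMS change was -2.34 ± 0.32 SE in KO (adjusted p = 0.000208) and -0.44 ± 0.08 SE in WT (adjusted p = 0.000683), which made Itga6 the only one of the 10 that fell further in KO than in WT by at least 2-fold (difference -1.90 ± 0.34 SE, adjusted p = 0.000335). Under FBS the KO fall of -1.29 ± 0.30 SE (adjusted p = 0.00567) leaned on KO FBS replicate 1, without which it was -0.98 (adjusted p = 0.00175) and under the 2-fold limit. The WT value under FBS, -0.13 ± 0.08 SE, did not pass (adjusted p = 0.184). The KO minus WT value was -1.29 ± 0.24 SE in CMS (adjusted p = 0.000649) and 0.61 ± 0.24 SE in SSt (adjusted p = 0.0445).

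Itga7, the laminin receptor of striated and smooth muscle, was low in most libraries. It was at 0.861, 1.18 and 1.45 FPKM in KO CMS, 2.65, 2.27 and 2.25 in KO FBS and 2.97, 3.58 and 2.77 in KO SSt. WT libraries had 0.998, 1.13 and 1.16 FPKM in CMS, 1.32, 1.06 and 1.18 in FBS and 7.09 to 8.06 in SSt. The KO FBS libraries lay just below the KO SSt ones, and the treated WT libraries far below the starved WT ones: the FBS change was -0.32 ± 0.19 SE in KO (adjusted p = 0.183) and -2.69 ± 0.10 SE in WT (adjusted p = 7.69e-09), and the responses differed by 2.39 ± 0.22 SE (adjusted p = 3.48e-06). Under CMS the change was -1.30 ± 0.19 SE in KO (adjusted p = 0.000381) and -2.79 ± 0.10 SE in WT (adjusted p = 6.01e-09). On the log2(FPKM + 1) scale with limma the KO value was -0.93, under 2-fold. KO was below WT in SSt (-1.34 ± 0.16 SE, adjusted p = 7.10e-06) and above it in FBS (1.05 ± 0.16 SE, adjusted p = 0.000223).

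Itga8 showed the widest fall of all 10 subunits. It pairs with Itgb1 as the receptor of nephronectin and is found on smooth muscle and stromal cells. Its FPKM was 0.780, 0.438 and 0.347 in KO CMS, 0.533, 0.938 and 1.02 in KO FBS and 13.98, 12.3 and 12.4 in KO SSt. WT libraries had 0.361, 0.543 and 0.487 in CMS, 0.465, 0.461 and 0.626 in FBS and 40.1, 36.3 and 37.7 in SSt. The treated libraries of both genotypes overlapped at a level close to the filter, and the starved ones were set apart by genotype. CMS lowered Itga8 by 23.0-fold in KO (log2 -4.52 ± 0.33 SE, adjusted p = 4.82e-06) and by 83.2-fold in WT (-6.38 ± 0.15 SE, adjusted p = 3.94e-10). Apart from KO FBS replicate 3, at 1.02 FPKM, only SSt libraries carried Itga8 through the filter on low values. The calls of a fall were thus bound to follow in both genotypes. KO SSt was below WT SSt by 3.1-fold (log2 -1.63 ± 0.23 SE, adjusted p = 3.64e-05), while under CMS the KO minus WT value was 0.22 ± 0.27 SE (adjusted p = 0.547). The responses differed by 1.86 ± 0.35 SE under CMS (adjusted p = 0.000516) and by 2.35 ± 0.34 SE under FBS (adjusted p = 0.000111).

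Smooth muscle markers moved with these muscle-associated subunits only in part. The summed FPKM of 6 such markers ran from 81.9 to 88.1 in KO CMS, 112 to 144 in KO FBS and 496 to 575 in KO SSt, and from 75.0 to 94.1 in WT CMS, 98.5 to 109 in WT FBS and 265 to 294 in WT SSt. In both genotypes the starved libraries were highest, as for Itga7 and Itga8, but the marker sum was higher in KO SSt than in WT SSt, where Itga7 and Itga8 were lower in KO. Tagln gave most of the sum, at 468.6 FPKM in KO SSt and 246 in WT SSt. Des, the desmin gene, was lower in KO SSt, at 4.56 FPKM, than in WT SSt, at 12.9 (log2 -1.57 ± 0.18 SE, adjusted p = 5.33e-06), the direction of Itga7 and Itga8. Of the 6 markers 3 reached an FPKM of 1 in KO CMS and all 6 in KO SSt, against 4 in WT CMS and 5 in WT SSt. Myh11, which defines mature smooth muscle, averaged 3.94 FPKM in KO CMS and 2.21 in KO SSt, and 2.68 in WT CMS and 2.34 in WT SSt, so it was not highest in SSt. Acta2 averaged 9.64 FPKM in KO CMS and 59.7 in KO SSt, and 8.996 in WT CMS and 11.9 in WT SSt. Whether the marker sum had a part in the changes of Itga7 and Itga8 was not tested.

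The abundant RGD receptors Itga5 and Itgav changed by less than 2-fold everywhere. Itga5 was at 45.8, 53.3 and 54.2 FPKM in KO CMS, 48.9, 37.5 and 38.9 in KO FBS and 57.0, 58.1 and 59.4 in KO SSt. Its WT levels were 47.2, 45.0 and 45.2 FPKM in CMS, 45.6, 45.6 and 42.8 in FBS and 71.2, 71.5 and 74.5 in SSt. Starved libraries were highest in either genotype, with a wider gap in WT. The CMS change was -0.08 ± 0.12 SE in KO (adjusted p = 0.589) and -0.69 ± 0.04 SE in WT (adjusted p = 9.14e-08), and these responses were 0.61 ± 0.13 SE apart (adjusted p = 0.00124). Itgav, which joins several beta chains and binds vitronectin and latent TGF-beta, was at 45.1 to 47.6 FPKM in KO CMS, 32.8 to 42.6 in KO FBS and 49.4 to 51.4 in KO SSt, against 43.9 to 47.9 in WT CMS, 40.7 to 42.6 in WT FBS and 62.6 to 63.8 in WT SSt. Its CMS change was -0.02 ± 0.10 SE in KO (adjusted p = 0.902) and -0.50 ± 0.04 SE in WT (adjusted p = 1.33e-06), and the responses differed by 0.49 ± 0.11 SE (adjusted p = 0.00219). KO SSt was below WT SSt for Itga5 (-0.39 ± 0.09 SE, adjusted p = 0.00264) and for Itgav (-0.41 ± 0.08 SE, adjusted p = 0.000579).

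Itga4 rose more than any other subunit. It forms the Vcam1 receptor of lymphocytes, monocytes and some mesenchymal cells. The level was 5.98, 5.70 and 4.69 FPKM in KO CMS, 2.91, 6.98 and 7.57 in KO FBS and 1.04, 1.16 and 1.35 in KO SSt. In WT it was 17.4, 19.8 and 19.9 FPKM in CMS, 16.0, 19.0 and 18.3 in FBS and 0.585, 0.438 and 0.583 in SSt. Treated WT libraries were above all KO libraries, and starved WT libraries below all of them. CMS raised Itga4 by 4.97-fold in KO (log2 2.31 ± 0.31 SE, adjusted p = 0.000207) and by 34.9-fold in WT (5.12 ± 0.12 SE, adjusted p = 3.69e-10). In the WT fit Itga4 passed the filter on low values through CMS and FBS libraries alone, so its WT call was bound to follow. The KO minus WT difference of the CMS response was -2.81 ± 0.36 SE (adjusted p = 1.73e-05), the largest of the 10, and that of the FBS response -2.65 ± 0.36 SE (adjusted p = 5.69e-05). KO stood above WT in SSt (1.07 ± 0.27 SE, adjusted p = 0.00390) and below it in CMS (-1.74 ± 0.24 SE, adjusted p = 4.62e-05) and FBS (-1.58 ± 0.24 SE, adjusted p = 0.000206). The SSt difference rests on 105 to 294 counts per library, and it fell under 2-fold without KO SSt replicate 3 (0.96), without WT SSt replicate 2 (0.94) and with limma on log2(FPKM + 1) (0.51, adjusted p = 0.0570).

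Macrophages also carry Itga4, and within each genotype the sum of their markers, though not every marker, was higher in the treated groups, where Itga4 was high. The summed FPKM of 12 macrophage markers ran from 4430 to 4763 in KO CMS, 4403 to 5401 in KO FBS and 2411 to 2514 in KO SSt, and from 6452 to 6765 in WT CMS, 6636 to 6993 in WT FBS and 3878 to 3994 in WT SSt. The sum was lower in KO than in WT in all 3 treatments, whereas Itga4 was higher in KO SSt than in WT SSt. Lyz2, the macrophage lysozyme gene, made up most of the sum, at 3012 FPKM in KO CMS and 1517 in KO SSt, and at 4841 in WT CMS and 2299 in WT SSt. Of 11 tested markers, 7 were higher and 3 lower under CMS at an adjusted p under 0.05 in KO, and also in WT. Over all genes 30.8% were higher and 30.7% lower in KO CMS, and 34.6% higher and 32.3% lower in WT CMS. The lower ones were Csf1r (log2 -1.08), Mrc1 (-1.58) and Aif1 (-0.55) in KO, and Cd14 (-1.80), Adgre1 (-1.33) and Aif1 (-0.31) in WT. The mean marker sum was 6611 in WT CMS and 3944 in WT SSt, where Itga4 rose 34.9-fold. It was 4636 in KO CMS and 2476 in KO SSt, where Itga4 rose 4.97-fold. Some single markers moved more than the sum. Adgre1 averaged 67.45 FPKM in KO CMS and 2.967 in KO SSt, but 21.04 in WT CMS and 52.05 in WT SSt. Cd68 averaged 508.8 FPKM in KO CMS and 141.3 in KO SSt, and 500.6 in WT CMS and 268.8 in WT SSt. The part of these cells in the Itga4 level was not tested.

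**Figure D4:**
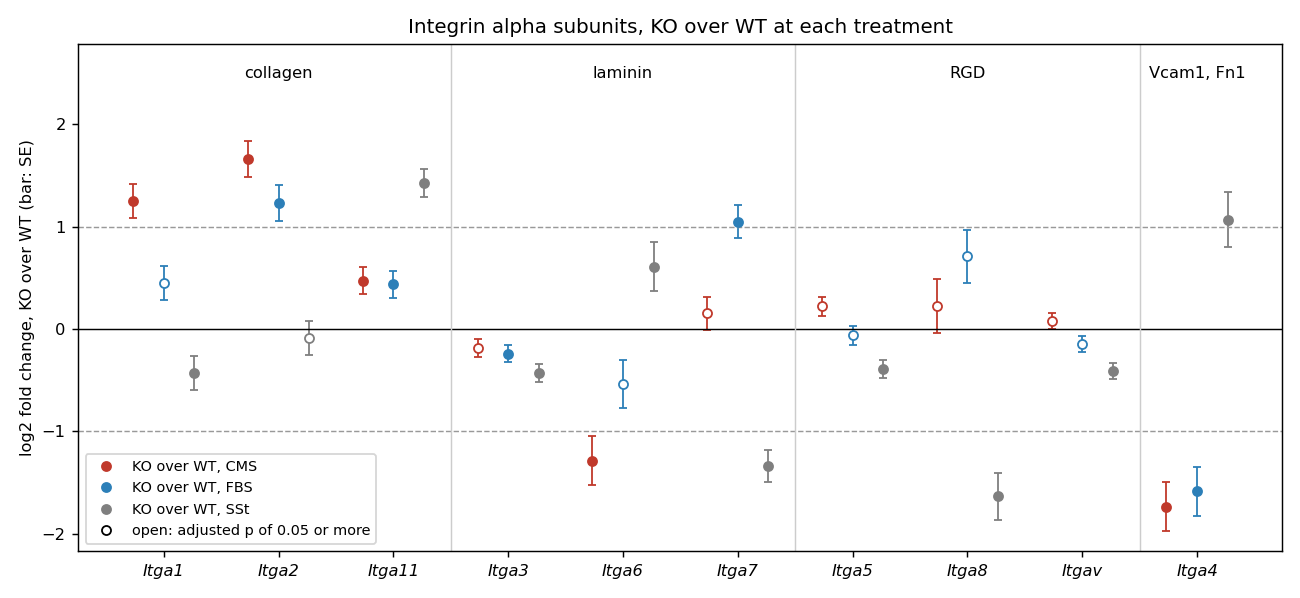
log2 fold change of KO over WT (vertical axis, edgeR) for the 10 integrin alpha subunits (horizontal axis, grouped by ligand) in CMS, FBS and SSt, where vertical bars are SEs, open symbols mark an adjusted p of 0.05 or more and dashed lines mark 2-fold. Itga4 lies at 1.07 in SSt and at -1.74 and -1.58 in CMS and FBS, and Itga8 at -1.63 in SSt.

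Promoter sequence was searched because several subunits moved together with the treatments. RefSeq (GRCr8) promoter windows, from 250 bases before to 50 bases after a start, were matched for 8 of the 10 genes, and Itga6 and Itga7 were not matched. GGAATG, the core that TEAD factors read, occurred on either strand in 2 of these 8, Itga3 and Itga4, and in 14.2% of all 33469 windows. TGANTCA, the AP-1 element, was in 0 of 8 and in 7.33% of all windows, and the CArG box, which serum response factor reads, in 0 of 8 and in 1.64%. The stretches around both matches are given with the motif, or its reverse complement CATTCC, in capitals. Itga4 lies at chr3:84570032-84570061 on the plus strand with the match 29 bases after the start, and Itga3 at chr10:80519006-80519035 on the minus strand with the match at -122.
Itga4: cagagcctgaggCATTCCtggccaccagga
Itga3: ggagtcgcgataGGAATGatggagagggag

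Itga4 rose and Itga3 fell under CMS in both genotypes, and the matches are a description of letters in these windows.

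KO FBS replicate 1 lay outside the range of the other KO FBS libraries for all 10 subunits, and for 9 of the 10, all but Itga7, it was nearer to KO CMS. Its mean correlation with its own group was 0.964, the lowest of the 18 libraries. Itga4 was at 2.91 FPKM in this library and 6.98 to 7.57 in the other KO FBS libraries, and Itga6 was at 1.83 FPKM in it and 4.14 to 4.61 in the others. Without it, 3 of the 4 subunits called in KO FBS against SSt kept their call: Itga2 at -2.27 (adjusted p = 1.79e-06), Itga4 at 2.66 (adjusted p = 9.37e-07) and Itga8 at -3.68 (adjusted p = 1.26e-05). Itga1 was at -0.81 (adjusted p = 0.0007) without it, against an adjusted p of 0.0531 with it. In KO against WT under FBS 1 of 3 did, Itga4 at -1.27 (adjusted p = 8.48e-06), while Itga2 at 0.91 (adjusted p = 3.28e-05) and Itga7 at 0.95 (adjusted p = 0.000906) passed the adjusted p with less than 2-fold. Itga7 was also under 2-fold without WT FBS replicate 2, at 0.98 (adjusted p = 0.00206). All p-values here are from edgeR.

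The beta chains with which these subunits pair were measured in the same libraries. Itgb1, which can partner all 10, was at 275 to 278 FPKM in KO CMS, 253 to 269 in KO FBS and 482 to 487 in KO SSt, against 252 to 258 in WT CMS, 246 to 252 in WT FBS and 393 to 401 in WT SSt. It fell by a similar amount in both genotypes under CMS (-0.70 ± 0.04 SE on the log2 scale in KO, adjusted p = 1.78e-06, and -0.67 ± 0.02 SE in WT, adjusted p = 1.87e-09), and the CMS responses differed by -0.03 ± 0.04 SE (adjusted p = 0.574). Itgb3, a partner of Itgav, changed under CMS by -1.26 ± 0.11 SE in KO (log2, adjusted p = 1.83e-05) and by -1.29 ± 0.06 SE in WT (adjusted p = 5.84e-08). Itgb5, another partner of Itgav, fell under CMS in KO (-0.78 ± 0.13 SE, adjusted p = 0.000700), while the WT value was -0.11 ± 0.05 SE (adjusted p = 0.0735). Itgb8, which with Itgav releases TGF-beta from its latent complex, went opposite ways: it was at 3.53 to 4.10 FPKM in KO CMS and 0.902 to 1.58 in KO SSt, against 2.22 to 3.22 in WT CMS and 4.31 to 4.50 in WT SSt. Its CMS change was 1.80 ± 0.27 SE in KO (adjusted p = 0.000431) and -0.71 ± 0.12 SE in WT (adjusted p = 0.000495). Itgb7, the other partner of Itga4, was at or below 0.777 FPKM in all WT libraries and averaged 1.85 to 2.61 in the KO groups, and Itgb4 and Itgb6 stayed below an average of 1 FPKM in every group.

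Leukocyte integrins were present as well. Itgb2, the beta chain of leukocytes, was at 527 to 582 FPKM in KO CMS, 323 to 470 in KO FBS and 109 to 122 in KO SSt, against 349 to 380 in WT CMS, 337 to 344 in WT FBS and 196 to 207 in WT SSt, so it exceeded Itgb1 in the 4 treated groups and not in SSt. It rose under CMS by 2.39 ± 0.14 SE in KO (log2, adjusted p = 1.67e-06) and by 0.82 ± 0.04 SE in WT (adjusted p = 2.56e-08). Of its alpha partners, Itgam averaged 59.6 FPKM in KO CMS and 26.7 in KO SSt, and 58.4 in WT CMS and 64.5 in WT SSt. Itgax averaged 20.8 FPKM in KO CMS and 8.45 in KO SSt, and 33.3 in WT CMS and 17.6 in WT SSt. Itgal averaged 4.42 FPKM in KO CMS and 4.18 in KO SSt, and 5.59 in WT CMS and 13.7 in WT SSt. Itga9, a receptor of tenascin-C and Vcam1, averaged 0.353 to 1.33 FPKM over the groups, and Itga10, Itga2b and Itgae stayed below 1 on average.

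**Figure D5:**
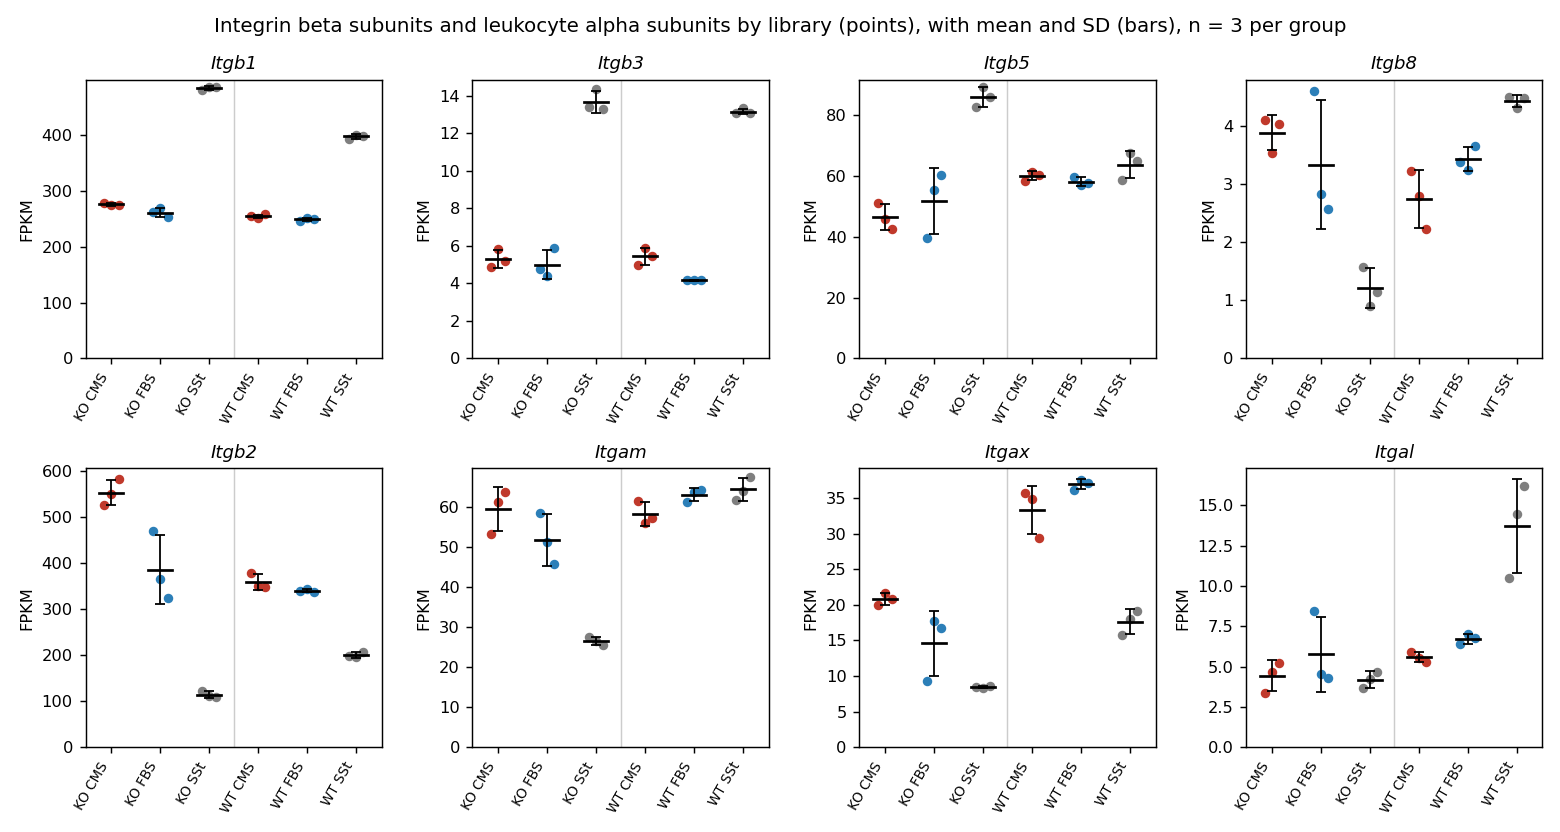
FPKM (vertical axes, linear from 0) of the beta subunits Itgb1, Itgb3, Itgb5, Itgb8 and Itgb2 and of the leukocyte alpha subunits Itgam, Itgax and Itgal in the 6 groups (horizontal axes), where points are libraries, horizontal bars means and vertical bars SDs, n = 3. Itgb1 and Itgb3 are highest in SSt in both genotypes, and Itgb8 is at 0.902 to 1.58 in KO SSt and 4.31 to 4.50 in WT SSt.

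Ligand genes of the 10 subunits were read from the same libraries. Of 7 tested collagen genes, 1 was higher and 1 lower at an adjusted p under 0.05 in KO CMS, and 4 were higher and 2 lower in WT CMS. Over all genes 30.8% were higher and 30.7% lower in KO CMS, and 34.6% higher and 32.3% lower in WT CMS, which is the background for the counts of ligands and adaptors. Col1a1, the main chain of fibrillar collagen, changed by 0.07 ± 0.15 SE in KO CMS (log2, adjusted p = 0.700) and rose by 0.71 ± 0.03 SE in WT CMS (adjusted p = 3.67e-08), and Col3a1 changed by 0.26 ± 0.19 SE in KO CMS (adjusted p = 0.270) and rose by 1.87 ± 0.03 SE in WT CMS (adjusted p = 1.04e-10). Itga11 showed these same directions, low in WT SSt and higher in the other groups. Among 7 tested laminin chains, 4 were higher and 3 lower in KO CMS and 3 were higher and 3 lower in WT CMS.

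Of 13 tested RGD and other ligands, 6 were higher and 4 lower in KO CMS, and 8 were higher and 4 lower in WT CMS. Npnt, which encodes the Itga8 ligand nephronectin, was at 8.80 to 12.4 FPKM in KO CMS and 6.99 to 8.59 in KO SSt, against 2.46 to 2.75 in WT CMS and 0.942 to 1.34 in WT SSt. In WT the ligand rose (log2 1.22 ± 0.16 SE, adjusted p = 6.91e-05) while the receptor fell, and in SSt the KO cells had 6.88-fold more Npnt (log2 2.78 ± 0.20 SE, adjusted p = 4.84e-08) with less Itga8. Vcam1, the Itga4 ligand, was at 2.14, 7.92 and 7.04 FPKM in KO CMS and 0.548 to 0.856 in KO SSt, against 6.29 to 7.01 in WT CMS and 1.48 to 1.64 in WT SSt. It rose under CMS in both genotypes, as Itga4 did, by 3.19 ± 0.52 SE in KO CMS (log2, adjusted p = 0.000645) and by 2.04 ± 0.08 SE in WT CMS (adjusted p = 1.29e-08). Fn1, which encodes fibronectin, the ligand of Itga5 and Itga4, averaged 3747 FPKM in KO CMS and 3591 in KO SSt, and 5129 in WT CMS and 1964 in WT SSt. Its change under CMS was 0.17 ± 0.09 SE in KO (log2, adjusted p = 0.118) and 1.36 ± 0.03 SE in WT (adjusted p = 3.61e-10). Tnc, a matrix ligand of Itga8 and Itgav, changed under CMS by -4.49 ± 0.20 SE in KO (log2, adjusted p = 3.58e-07) and by -4.93 ± 0.03 SE in WT (adjusted p = 1.86e-13). Thbs1, another Itgav ligand, changed by -2.57 ± 0.12 SE in KO (adjusted p = 3.84e-07) and by -3.73 ± 0.05 SE in WT (adjusted p = 1.63e-11), and Ccn1 by -3.73 ± 0.09 SE in KO (adjusted p = 3.69e-08) and by -4.27 ± 0.05 SE in WT (adjusted p = 1.24e-11).

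Inside the cell, 5 of 15 tested adaptor genes were higher and 6 lower in KO CMS, and 5 were higher and 9 lower in WT CMS. Fermt2, the kindlin of adherent cells, changed by -1.21 ± 0.04 SE in KO CMS (log2, adjusted p = 7.01e-08) and by -1.27 ± 0.03 SE in WT CMS (adjusted p = 9.20e-10). Fermt3, the kindlin of blood cells, rose by 1.34 ± 0.07 SE in KO CMS (adjusted p = 5.36e-07) and by 0.59 ± 0.03 SE in WT CMS (adjusted p = 3.81e-08). Tln1, which encodes talin, and Ilk, the integrin-linked kinase, changed little under CMS: Tln1 by 0.19 in KO and -0.14 in WT, and Ilk by -0.45 in KO and -0.41 in WT.

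Over the 18 libraries, the genes most like each subunit were found by Pearson's r of log2 CPM among tested genes, as a description, since the libraries share 6 groups and 2 tables. Itga4 was most like Plce1 (r = 0.993), Itga2 most like Flna, which encodes the actin crosslinker filamin A (r = 0.993), and Itga8 most like Wnt5a (r = 0.991) and Tnc (r = 0.989). Itga6 was most like the mitotic genes Nusap1 (r = 0.990), Cenpm (r = 0.984) and Shcbp1 (r = 0.983). For Itga11 it was Wnt16 (r = 0.976), with Col1a1 next (r = 0.975), for Itga7 Plaur, the urokinase receptor gene (r = 0.983), for Itga1 Fzd1 (r = 0.981) and for Itga3 Pkd1 (r = 0.979). Itga5 and Itgav had the same leading gene, Ednrb, an endothelin receptor gene (r = 0.966 for Itga5 and 0.960 for Itgav), and were most like each other among the 10 (r = 0.955). The most opposite subunits were Itga2 and Itga4 (r = -0.980).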

How the data were processed

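RNA-seq of KO and WT MSCs was taken from one table per genotype (9 libraries each, 32623 genes). The authors deposited whole-number read counts per gene, not normalised, and FPKM values, which the authors scaled by transcript length and library total. Bowtie 0.12.2 and the mouse build mm10 appear in the submitters' processing notes, although gene identifiers are rat, with their roles, the counting tool and its strand setting not given in the sources used here. Coordinates of the tables, whose build is not given in the sources used here, served only to find genes that overlap a member. Pelo at Itga1 came from that search. Whether libraries came from separate rats or cultures is not stated, so p-values measure only the spread between these samples.

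Genes with 3 or more libraries at an FPKM of 1 or higher (12888 in KO, 12916 in WT, 13317 in all 18) entered edgeR 4.0.16 as counts (TMM, quasi-likelihood F test, Benjamini-Hochberg). Each genotype was fitted with its 3 groups, and KO against WT and the interactions came from all 18 libraries. Called means an adjusted p below 0.05 together with a change of 2-fold or more. SEs were derived from F. On simulated data, at an adjusted p below 0.05, the fits recovered 43.3% to 61.2% of changes set at 1.5-fold. At 2-fold they recovered 76.1% to 85.1%. The lower value of each range is from KO CMS against SSt. Alternatives used DESeq2 1.42.0, limma 3.58.1 with pseudocounts of 1 and 0.1, other scalings and filters, the replicate number as a block and each library left out. Members and lists were chosen with earlier results of these data known. The rule for names took all 10 members and other integrin subunits, from each other list the 3 most abundant genes and the 3 most changed called genes in WT CMS with any ligand of a named subunit, and for each member the 3 most correlated genes. Vcam1 and Npnt entered as ligands, and cell type markers other than these, such as Lepr, Ptprc, Tie1 and Myh11, were named after their values were seen. Not every gene that the rule took is named in the results. Spp1, Cd68 and the laminin chains, for example, are left out there, and the choice among such genes followed no rule. R 4.3.3 and Python 3.11.15 (pandas 2.3.3, numpy 2.4.6, matplotlib 3.10.9) were used.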

Additional observations from a re-analysis of the deposited data

Results flagged for a closer look

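The response to CMS or FBS differed between KO and WT cells for several integrin subunits, by the interaction term of the edgeR fit over 18 libraries, at an adjusted p under 0.05 and at least 2-fold. Values are the KO log2 change over SSt minus the WT one. Under CMS the difference was positive for Itga1 (1.68), Itga2 (1.75), Itga7 (1.49) and Itga8 (1.86), which all fell less or not at all in KO. It was negative for Itga4 (-2.81), which rose less in KO, and for Itga6 (-1.90), which fell further in KO. Under FBS it was 1.32 for Itga2, 2.39 for Itga7 and 2.35 for Itga8, and -2.65 for Itga4 and -1.15 for Itga6.

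Among the other subunits, Itgb8 differed by 2.51 under CMS and by 1.95 under FBS, and under CMS it rose in KO and fell in WT. The leukocyte chains Itgb2 (1.57 under CMS and 1.10 under FBS), Itgam (1.45 and 1.10) and Itgal (1.52 and 1.61) differed in the positive direction, and Itga9 (-1.96 and -1.52) in the negative one. Itga9 passed the filter through KO SSt, KO FBS and WT FBS libraries alone, and lay at 0.2315 to 0.7884 FPKM in the other groups. KO FBS replicate 1 was also the highest of its group for Itgb2 (470 FPKM against 323 and 365), Itgal (8.43 against 4.31 and 4.53) and Itgb8 (4.61 against 2.575 and 2.83). These other subunits were not refitted with a library left out. Without KO FBS replicate 1 the Itga6 difference under FBS was -0.85 (adjusted p = 0.0053), below 2-fold, and the Itga2 difference was 1.005 (adjusted p = 0.000107). With limma on log2(FPKM + 1) and all libraries the Itga2 difference under FBS was 0.93 (adjusted p = 0.0018), also below 2-fold.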

How the results depend on the processing

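Of 110 subunit results, 46 were called, 37 of these kept their call under every alternative in which they were tested, and no called result changed direction. In KO CMS against FBS 1 subunit in place of 0 was called with DESeq2, upper-quartile scaling, a filter at an FPKM of 5, limma with a pseudocount of 0.1 and the replicate block, and 0 to 2 when leaving out 1 library, with Itga6, Itga7 or Itga8 as the subunits concerned. With limma and a pseudocount of 1, 1 of 3 calls was kept for KO against WT in FBS (Itga4, with Itga2 at 0.91 and Itga7 at 0.63) and 2 of 4 in CMS (Itga2 and Itga4, with Itga1 at 0.94 and Itga6 at -0.98), and Itga2 lost its call in the FBS response (0.93). Calls were gained for Itga11 in the FBS response under 6 alternatives (-1.001 to -1.111) and when leaving out any of 5 libraries (-1.012 to -1.095), in the CMS response under 3 (-1.055 to -1.115) and without KO CMS replicate 1 (-1.15) or WT SSt replicate 3 (-1.03), for Itga1 in the FBS response without KO FBS replicate 3 (1.06), and for Itga3 in KO FBS against SSt with both limma fits (-1.005 and -1.03) and without KO FBS replicate 3 or KO SSt replicate 1 (-1.01 each). Leaving out 1 library gave 1 to 3 calls for KO against WT in FBS, with 1 only without KO FBS replicate 1. Itga8 was not tested in WT without an SSt library, since it then failed the filter, which gave 6 calls in place of 7. The replicate numbers did not pair the samples (same-number correlations -0.131 to 0.149), and the replicate block moved no other count of called subunits. Only values that were not called crossed 0: Itga11 in KO CMS against FBS was -0.02 with limma at either pseudocount (-0.0195 and -0.0200) and Itga4 was 0.0161 with limma at 0.1 and 0.0473 with the replicate block. Leaving out 1 library, log2 changes ran from -0.161 to 0.138 for Itga11 and from -0.346 to 0.192 for Itga4 in KO CMS against FBS, from -0.268 to 0.0102 for Itga8 and from -0.0345 to 0.0232 for Itga11 in WT CMS against FBS, from -0.0737 to 0.0943 for Itga1, from -0.126 to 0.00327 for Itga5 and from -0.0451 to 0.00313 for Itgav in KO CMS against SSt, from -0.171 to 0.455 for Itga8 and from -0.038 to 0.336 for Itga7 in KO against WT in CMS, and from -0.213 to 0.0228 for Itga5 in KO against WT in FBS. The cause was not tested. Over all genes, the filter at an FPKM of 5 gave 1348 calls in place of 2155 in WT CMS against SSt and 1294 in place of 2078 in WT FBS, and limma with a pseudocount of 1 gave 147 in place of 337 in KO CMS against FBS (up to 545 without 1 library), 9 in place of 28 in WT CMS against FBS (45 with DESeq2), and 567, 273 and 616 in place of 975, 536 and 1106 in KO against WT in SSt, FBS and CMS. Counts of 105 to 141 limit Itga4 in WT SSt, and those of 132 to 361 limit Itga8 in treated cells.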
